A study of Mus musculus with 28 samples.

Results

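Insulin and IGF-1 act on islet cells through a short chain of receptors, docking proteins, a lipid kinase and transcription factors, and 9 genes of that chain are described here in mouse islet RNA. They are the receptors Insr and Igf1r, the docking proteins Irs1 and Irs2, the regulatory kinase subunit Pik3r1, the kinases Akt1 and Akt2, and the transcription factors Foxo1 and Foxo3. They were chosen by gene symbol from a table of 14219 genes. The rule did not use their values, but earlier results of these data were known when it was made. All 9 were among the 13591 genes kept for testing. The islets came from 28 male mice of 10 to 12 weeks on a C57Bl6 and 129sv background, with 1 library per mouse. Control mice were Klf6flox/flox;Ins1+/+ and βKlf6KO mice Klf6flox/flox;Ins1Cre/+, so that both carried the floxed Klf6 alleles and the second also carried Cre in 1 Ins1 allele, which is active in β cells and leaves the other islet cells with Klf6. Mice received saline (6 control, 6 βKlf6KO) or S961 (8 control, 8 βKlf6KO), a peptide that blocks the insulin receptor; its dose and duration were not in the labels. After enzyme digestion of the pancreas, 120 to 150 hand-picked islets per mouse were cultured overnight and their RNA was extracted. The series asks which islet genes differ between control and βKlf6KO mice under each treatment.

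When insulin binds its receptor, the receptor phosphorylates IRS docking proteins, which recruit phosphatidylinositol 3-kinase through its p85 subunit and so activate Akt. Akt phosphorylates FoxO factors and keeps them out of the nucleus, and FoxO factors in turn raise transcription of Insr and Irs2 in several tissues. In β cells this pathway is known for its part in growth, survival and compensation for insulin resistance. Phosphorylation and location of these proteins were not measured, so the values below are RNA levels.

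The receptor genes are Insr (ENSMUSG00000005534, chromosome 8, 3122061 to 3279617, minus strand) and Igf1r (ENSMUSG00000005533, chromosome 7, 67952827 to 68233668, plus strand). The docking protein genes are Irs1 (ENSMUSG00000055980, chromosome 1, 82233101 to 82291416, minus strand) and Irs2 (ENSMUSG00000038894, chromosome 8, 10984681 to 11008458, minus strand). Pik3r1 (ENSMUSG00000041417, chromosome 13, 101680563 to 101768217, minus strand) encodes p85α. Akt1 (ENSMUSG00000001729) lies on chromosome 12 at 112653821 to 112674884 on the minus strand, and Akt2 (ENSMUSG00000004056) on chromosome 7 at 27591552 to 27640826 on the plus strand. Foxo1 (ENSMUSG00000044167) lies on chromosome 3 at 52268336 to 52353221 on the plus strand, and Foxo3 (ENSMUSG00000048756) on chromosome 10 at 42181841 to 42276755 on the minus strand. All are protein-coding genes of GENCODE M21 on GRCm38, and reads were counted over the whole gene, so exons and isoforms are not separated.

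A promoter sequence of 300 bases, from 250 before to 50 after the RefSeq start on GRCm38.p6, was found for 8 of the 9 genes, the exception being Insr. Those of Igf1r and Foxo3 are shown because these genes passed the test between labelled genotypes, and those of Irs1 and Irs2 because these paralogs differed in level. Capitals mark the motifs searched on both strands: the GC box GGGCGG or CCGCCC, the E-box CACGTG, the forkhead core TGTTTAC or GTAAACA, and the CRE TGACGTCA.
Igf1r (chr7:67952007-67952306, plus strand): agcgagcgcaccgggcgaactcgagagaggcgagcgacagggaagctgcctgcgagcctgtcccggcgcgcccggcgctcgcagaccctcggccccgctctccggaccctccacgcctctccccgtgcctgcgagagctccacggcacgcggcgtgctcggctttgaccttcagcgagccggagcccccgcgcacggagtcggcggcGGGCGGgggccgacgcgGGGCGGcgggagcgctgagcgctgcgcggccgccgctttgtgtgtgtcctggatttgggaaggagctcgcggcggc
Foxo3 (chr10:42276646-42276945, minus strand): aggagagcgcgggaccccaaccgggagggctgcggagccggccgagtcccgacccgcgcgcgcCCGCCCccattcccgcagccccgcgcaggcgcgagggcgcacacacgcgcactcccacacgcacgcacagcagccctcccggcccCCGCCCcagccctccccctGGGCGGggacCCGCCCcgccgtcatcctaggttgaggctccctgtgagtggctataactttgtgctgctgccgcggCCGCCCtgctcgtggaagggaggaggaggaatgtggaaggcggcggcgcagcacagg
Irs1 (chr1:82291390-82291689, minus strand): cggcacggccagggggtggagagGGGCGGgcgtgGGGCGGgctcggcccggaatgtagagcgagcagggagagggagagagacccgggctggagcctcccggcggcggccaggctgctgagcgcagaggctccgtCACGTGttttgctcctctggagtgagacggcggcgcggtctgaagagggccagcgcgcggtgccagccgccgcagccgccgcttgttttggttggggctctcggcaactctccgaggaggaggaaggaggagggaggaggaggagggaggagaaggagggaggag
Irs2 (chr8:11008880-11009179, minus strand): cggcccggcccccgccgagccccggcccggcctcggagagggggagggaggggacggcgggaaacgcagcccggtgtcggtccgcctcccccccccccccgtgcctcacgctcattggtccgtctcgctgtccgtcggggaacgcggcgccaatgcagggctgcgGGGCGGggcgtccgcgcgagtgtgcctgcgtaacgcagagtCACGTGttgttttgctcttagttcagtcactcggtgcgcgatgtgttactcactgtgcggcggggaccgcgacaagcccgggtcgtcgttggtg

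These 4 promoters are rich in G and C, with 76.0% for Igf1r, 75.0% for Foxo3, 71.3% for Irs1 and 72.0% for Irs2, against a median of 52.7% over all 32851 promoters of that length. Irs1 and Irs2 each held 1 E-box, at -115 and -44 from the start, a motif found in 7.15% of all promoters. GC boxes, present in 35.7% of all promoters, numbered 2 in Igf1r, 5 in Foxo3, 2 in Irs1 and 1 in Irs2. The forkhead core, found in 3.65% of promoters, and the CRE, found in 1.79%, were not in these 4 windows. One of the 2 Akt1 promoters held 1 forkhead core, at -161. These matches describe letters, not bound sites.

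Libraries held 28868638 to 45001633 reads over listed genes, and members ranged from 168 reads (Irs1 in 1 library) to 7065 (Igf1r in another). Levels are given as log2 CPM, where CPM is a read count scaled to a common library size. After saline the targeted gene Klf6 measured 6.97 ± 0.26 log2 CPM (mean ± SD over 6 libraries) under the βKlf6KO label and 7.0 ± 0.43 under the control label (6 libraries). The S961 values were 7.22 ± 0.52 and 6.94 ± 0.72 (8 libraries each). It was thus not lower under the knockout label, although these counts cover the whole gene and may include reads outside the floxed part. The mean log2 ratio of Ins1 to Ins2 reads, given at the end, was higher under the βKlf6KO label after saline and lower after S961. Directions below are those of the labels. All 10 listed β-cell markers were measured in every library, where they summed to 58300 to 226000 CPM. Libraries also differed along a first principal component that held 54.9% of the variance. Its gene loadings ran with GC content (Spearman -0.845 across 13584 genes, which are not independent), and control S961 replicate 2, control saline replicate 4 and control S961 replicate 8 scored highest.

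Per kilobase of exon, Akt1 was the most abundant of these RNAs and Irs1 the least. Akt1 had a geometric mean of 15.2 CPM per kb over 28 libraries (range 2.73 to 35.3), Foxo1 11.4 (7.58 to 19.8), and Akt2 9.50 (3.16 to 13.6). Pik3r1 had 8.47 CPM per kb (5.88 to 17.9), Foxo3 8.00 (6.54 to 9.34) and Igf1r 7.47 (5.30 to 11.6). Insr had 5.43 CPM per kb (4.2 to 8.07), Irs2 3.87 (2.74 to 5.23) and Irs1 1.15 (0.634 to 1.94). From Akt1 down to Igf1r, neighbours in this order differed by 0.08 to 0.41 on the log2 scale, less than the SD of that difference over libraries in each case. Igf1r exceeded Insr in 28 of 28 libraries, by 0.46 ± 0.23 (SD) on the log2 scale per kb. Irs2 exceeded Irs1 in 28 of 28 libraries, by 1.76 ± 0.41. Insr, Irs2 and Irs1 held the same 3 lowest places in every labelled group.

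**Figure D1:**
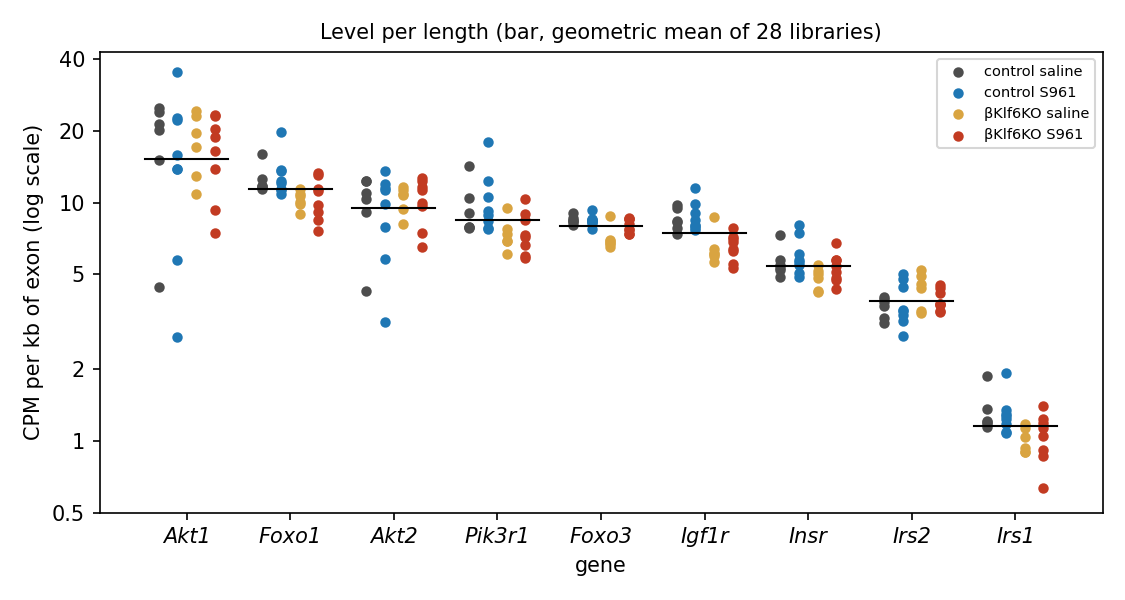
Level per kilobase of exon (CPM per kb, log axis) of the 9 genes in 28 libraries, coloured by labelled group, with bars at the geometric mean. Akt1 spans 2.73 to 35.3 CPM per kb, and Irs1, lowest with a mean of 1.15, lies below Irs2 in every library.

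S961, which blocks the receptor that starts this chain, was followed by no called difference in any of the 9 genes in control islets. Of all genes tested, 0% were called in this comparison by limma with Benjamini-Hochberg adjustment (104 of 13591 had an unadjusted p under 0.05, and 0 of the 9 did). Insr stood at 6.07, 6.21 and 6.65 log2 CPM (lowest, median and highest of 6) after saline and 6.06, 6.29 and 6.79 (of 8) after S961, so the groups overlapped. Its log2 difference was 0.09 ± 0.12 (SE, 95% interval -0.15 to 0.33). Irs2, the FoxO-responsive docking protein gene, stood at 4.31, 4.57 and 4.67 log2 CPM after saline and 4.12, 4.47 and 4.98 after S961, a difference of 0.04 ± 0.12 (-0.21 to 0.30). The S961 group held both the lowest and the highest Irs2 value of the pair.

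The intervals limit what could have been seen. For Igf1r the log2 difference between S961 and saline in control islets was 0.04 (95% interval -0.18 to 0.26), for Irs1 -0.03 (-0.34 to 0.29), and for Pik3r1 0.10 (-0.26 to 0.45). Foxo1 differed by 0.06 (-0.21 to 0.32) and Foxo3 by -0.01 (-0.14 to 0.12). The kinase genes were measured far less closely, with Akt1 at -0.30 (-1.21 to 0.61) and Akt2 at -0.12 (-0.66 to 0.42). The median member difference was 0.04, beside 0.00 over all genes, and adjusted p was 0.973 to 0.978.

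In islets labelled βKlf6KO, S961 was likewise followed by 0 called members, where 0% of all genes were called (413 of 13591, and 1 of the 9 members, had an unadjusted p under 0.05 in limma). That member was Foxo3, a FoxO factor held in the cytoplasm by Akt. It stood at 5.63, 5.70 and 6.06 log2 CPM (lowest, median and highest of 6) after saline and 5.80, 5.91 and 6.03 (of 8) after S961. All 8 S961 libraries lay above the saline mean, but saline replicate 2 was the highest of all 14, so the ranges overlapped. The log2 difference was 0.17 ± 0.06 (95% interval 0.04 to 0.30, unadjusted p = 0.0136, adjusted p = 1.0 in limma). For the receptors the differences were 0.14 (-0.10 to 0.37) for Insr and 0.02 (-0.20 to 0.24) for Igf1r. Irs2 differed by -0.14 (-0.39 to 0.12) and Akt1 by -0.16 (-1.07 to 0.76), and the median member difference was 0.02, beside 0.00 over all genes.

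Igf1r, the receptor for IGF-1 and IGF-2, was lower in islets labelled βKlf6KO than in control islets. After S961 it stood at 7.01, 7.12 and 7.60 log2 CPM (lowest, median and highest of 8) in control libraries and 6.48, 6.80 and 7.04 (of 8) in βKlf6KO libraries. All 8 βKlf6KO libraries lay below the control mean and 7 of 8 below the lowest control, with βKlf6KO replicate 4, at 7.04, the 1 library that reached the control range. Igf1r fell by 0.43 ± 0.10 on the log2 scale (SE; 95% interval -0.63 to -0.22), to 0.743 of the control level (adjusted p = 0.0194 in limma). It was 1 of 9 members called, beside 4.36% of all genes tested. Within sequencing lanes 4, 5, 6 and 7 the log2 difference was -0.22, -0.61, -0.31 and -0.57, with 2 libraries per group in each. The adjusted p was 0.0507 without βKlf6KO S961 replicate 6, 0.0837 with only the 2 groups compared in the fit and 0.0800 after quantile normalization.

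After saline the Igf1r values were similar but did not pass the test. Control libraries stood at 6.95, 7.13 and 7.36 log2 CPM (lowest, median and highest of 6), and βKlf6KO replicates 1 to 6 at 6.74, 7.19, 6.67, 6.56, 6.64 and 6.70. Of the βKlf6KO libraries, 5 of 6 lay below every control, and replicate 2 lay inside the control range. The log2 difference was -0.41 ± 0.11 (95% interval -0.64 to -0.17, adjusted p = 0.0515 in limma), and without βKlf6KO saline replicate 2 it was -0.49 (adjusted p = 0.00912). It was called in 7 of 15 alternatives, over which the adjusted p ran from 0.000166 to 0.17, and in 6 of 28 fits without 1 library. Within lanes 4, 5, 6 and 7 it was -0.34, -0.39, -0.49 and -0.69, from 1 or 2 libraries per group.

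Foxo3 was the member called between labelled genotypes after saline, again 1 of 9, beside 2.78% of all genes. Control libraries stood at 6.10, 5.97, 5.94, 5.99, 6.03 and 6.01 log2 CPM (replicates 1 to 6) and βKlf6KO libraries at 5.71, 6.06, 5.67, 5.72, 5.63 and 5.69. The controls were close together, 5 of 6 βKlf6KO libraries lay below all of them, and replicate 2 lay within their range. Foxo3 fell by 0.26 ± 0.07 on the log2 scale (SE; 95% interval -0.40 to -0.12), to 0.835 of the control level (adjusted p = 0.0372 in limma). Within lanes 4, 5, 6 and 7 the log2 difference was -0.32, -0.07, -0.29 and -0.35. The call was lost when control saline replicate 1, 2, 3, 5 or 6 or βKlf6KO saline replicate 1, 3, 4, 5 or 6 was left out, with an adjusted p of up to 0.101. It was also lost with a filter at 5 CPM (adjusted p = 0.058), the replicate block (0.057), only the groups compared (0.105), median centring (0.109), the GC correction (0.171) and quantile normalization (0.218). Without βKlf6KO saline replicate 2 the difference was -0.32 (adjusted p = 0.00331).

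After S961 the Foxo3 difference between labelled genotypes was smaller. Control libraries stood at 5.88, 5.99 and 6.14 log2 CPM (lowest, median and highest of 8) and βKlf6KO libraries at 5.80, 5.91 and 6.03, ranges that largely overlapped. The log2 difference was -0.08 ± 0.06 (95% interval -0.20 to 0.04, adjusted p = 0.439 in limma). The difference of the S961 responses between labelled genotypes was 0.18 ± 0.09 for Foxo3 (-0.01 to 0.37, unadjusted p = 0.0569, adjusted p = 1.0), so a change of the genotype difference with S961 did not pass the test. For Igf1r that difference of responses was -0.02 (-0.33 to 0.29). Over all 13591 genes 0% were called in this comparison (350 had an unadjusted p under 0.05 in limma), and 0 of 9 members had either.

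**Figure D2:**
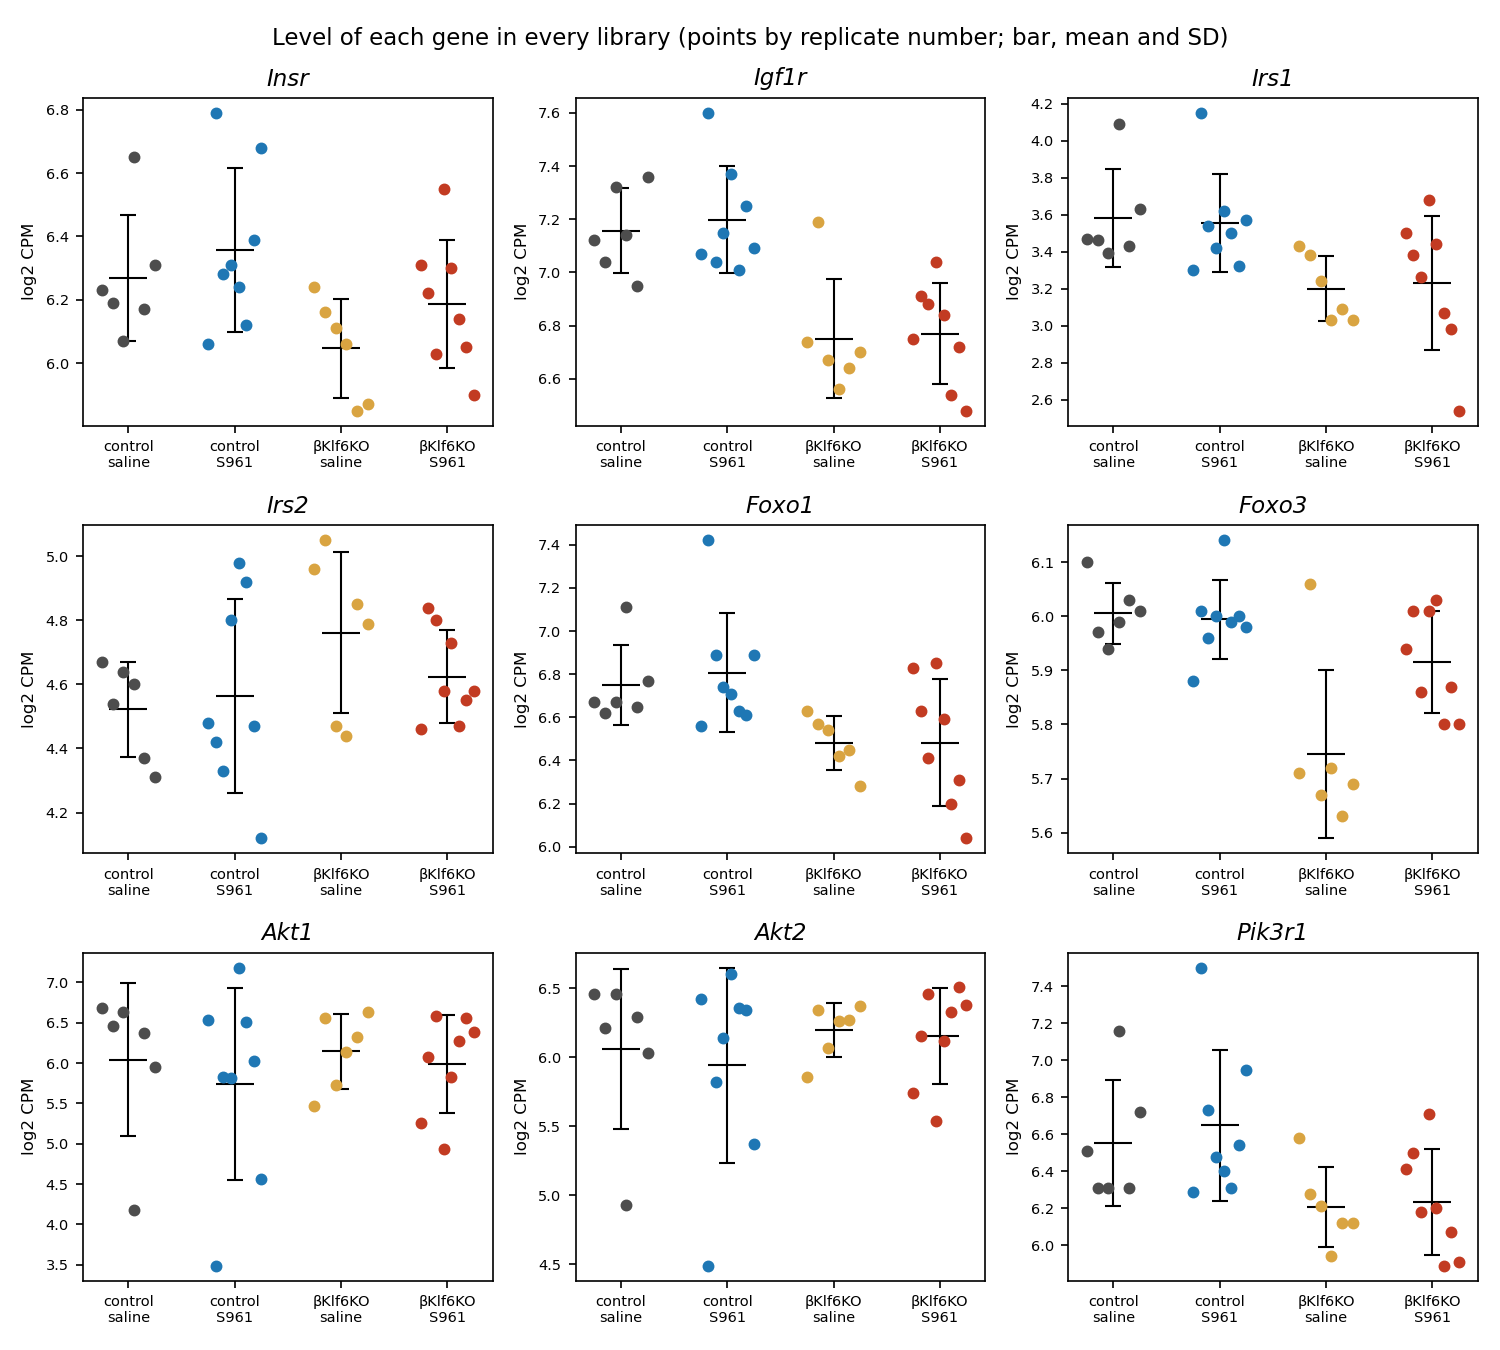
Level (log2 CPM) of the 9 genes in each library by labelled group, points in replicate order, with mean and SD; each panel has its own axis. For Igf1r, the βKlf6KO libraries lie below the lowest control of the same treatment except saline replicate 2 at 7.19 and S961 replicate 4 at 7.04, and the Akt1 and Akt2 panels each hold 3 control libraries below all others.

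Markers of other cells moved with the βKlf6KO label as well. In a bulk sample, fewer cells of a type and less RNA per cell cannot be told apart. The marker calls stand beside 2.78% of all genes called after saline and 4.36% after S961. After saline, 2 of 8 fibroblast and stellate markers, 3 of 8 macrophage markers and 2 of 6 tested lymphocyte markers were higher, with median log2 differences of 1.24, 0.77 and 3.27, and 2 of 10 β-cell markers were lower (median -0.23). Summed macrophage markers ranged over 94.6 to 132 CPM in control and 122 to 647 in βKlf6KO libraries, fibroblast and stellate markers over 17.8 to 41.4 and 27.8 to 159, and lymphocyte markers over 6.15 to 11.4 and 5.02 to 90.1. After S961, 4 of 8 fibroblast and stellate markers and 1 of 6 ductal markers were higher and 4 of 10 β-cell markers and 1 of 6 α-cell markers lower, with medians of 1.33, 0.81, -0.43 and -0.03. The fibroblast and stellate sums after S961 were 19.5 to 64.5 CPM in control and 43.5 to 122 in βKlf6KO libraries. Of 9 acinar markers 0 were called after S961, but their median was 0.96. Acinar sums were 4910 to 29400 CPM in control and 19500 to 77600 in βKlf6KO libraries. βKlf6KO S961 replicates 6, 7 and 8 had the highest acinar sums (37900, 45800 and 77600 CPM) and the lowest Igf1r of their group (6.54, 6.72 and 6.48 log2 CPM). The same 3 libraries were lowest of their group for Foxo1 (6.20, 6.31 and 6.04), Irs1 (3.07, 2.98 and 2.54) and Pik3r1 (5.89, 6.07 and 5.91). Pearson's r with the mean of the acinar markers (28 libraries, group means removed) ran from -0.804 for Foxo1 to 0.699 for Akt2. It was -0.433 for Igf1r. The part of acinar RNA in these levels was not tested. None of these lists had a marker at 0 in every library of a group. Of the 7 lymphocyte markers in the table, however, 4 had 0 reads in at least 1 control saline library and 2 in at least 1 βKlf6KO saline library. After S961 this held for 3 in control and 3 in βKlf6KO libraries. The lymphocyte medians thus come from a list with genes near 0 reads.

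βKlf6KO saline replicate 2, the library with control-like Igf1r and Foxo3, had the lowest sums of its group for fibroblast and stellate (27.8 CPM), macrophage (122 CPM) and lymphocyte markers (5.02 CPM). βKlf6KO saline replicate 5 had a lymphocyte sum of 7.34 CPM, within the control saline range. Its sums of 137 CPM for macrophage and 69.8 CPM for fibroblast and stellate markers lay above the control saline ranges. Igf1r stood at 6.64 and Foxo3 at 5.63 log2 CPM in that library. Over 28 libraries with group means removed, Pearson's r with the mean of the fibroblast and stellate markers was -0.518 for Igf1r and -0.635 for Foxo3. This was the most negative of the 10 marker lists for both genes. For Igf1r the ductal, lymphocyte, macrophage and acinar lists gave -0.489, -0.451, -0.446 and -0.433, and the α-cell list the highest r, 0.391. For Foxo3 the lymphocyte and macrophage lists gave -0.577 and -0.366, and the β-cell list the highest, 0.2. These values describe libraries that share depth and preparation. The part of these cells in the Igf1r and Foxo3 differences was not tested.

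Of the other members, Irs1, Foxo1 and Pik3r1 had negative estimates under the βKlf6KO label in both treatments without passing the test. Library quality weights called all 3 after saline (adjusted p = 0.0082 for Irs1, 0.046 for Foxo1 and 0.0375 for Pik3r1 in limma). That setting called 3018 of all 13591 genes, against 378 in the main fit. After S961, Foxo1 and Pik3r1 were called with the GC correction (0.03 and 0.0125) and when the first component was a covariate (0.0243 and 0.0201). These 2 settings called 2549 of 13584 and 3829 of 13591 genes, against 593 in the main fit. Pik3r1 stood at 6.31, 6.42 and 7.16 log2 CPM (lowest, median and highest of 6) in control and 5.94, 6.17 and 6.58 in βKlf6KO libraries after saline, with 5 of 6 below every control. After S961 it stood at 6.29, 6.51 and 7.5 in control and 5.89, 6.19 and 6.71 in βKlf6KO libraries (8 each), with 5 of 8 below every control. The log2 difference was -0.35 ± 0.18 (95% interval -0.72 to 0.03, adjusted p = 0.408 in limma) after saline and -0.42 ± 0.16 (-0.74 to -0.09, adjusted p = 0.117) after S961. In lane 4 the Pik3r1 difference had the opposite sign in both treatments, 0.17 and 0.17.

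Foxo1, the FoxO factor most studied in β cells, stood at 6.62, 6.67 and 7.11 log2 CPM in control and 6.28, 6.49 and 6.63 in βKlf6KO libraries after saline. The 6 βKlf6KO libraries lay below the control mean and 5 of 6 below every control, with a log2 difference of -0.27 ± 0.14 (adjusted p = 0.385 in limma). After S961 Foxo1 stood at 6.56, 6.73 and 7.42 in control and 6.04, 6.50 and 6.85 in βKlf6KO libraries, a difference of -0.33 ± 0.12 (-0.57 to -0.08, adjusted p = 0.106). Irs1 stood at 3.39, 3.46 and 4.09 log2 CPM in control and 3.03, 3.17 and 3.43 in βKlf6KO libraries after saline, a difference of -0.38 ± 0.16 (-0.72 to -0.04, adjusted p = 0.264). After S961 Irs1 stood at 3.30, 3.52 and 4.15 in control and 2.54, 3.32 and 3.68 in βKlf6KO libraries, a difference of -0.32 ± 0.14 (adjusted p = 0.174). In each of these pairs the ranges overlapped. After saline the SD was larger in control than in βKlf6KO libraries (0.184 and 0.123 for Foxo1, 0.265 and 0.175 for Irs1). After S961 it was larger in βKlf6KO libraries (0.294, against 0.277 in control, for Foxo1 and 0.363 against 0.265 for Irs1). βKlf6KO S961 replicate 8 was the lowest library there for both genes and had the highest acinar marker sum of its group (77600 CPM). The part of acinar RNA in its Foxo1 and Irs1 levels was not tested. In lane 4 after S961 both genes had the opposite sign, 0.19 for Foxo1 and 0.23 for Irs1.

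Insr itself stood at 5.85, 6.08 and 6.24 log2 CPM in βKlf6KO libraries after saline, of which 3 of 6 lay below every control, and at 5.90, 6.18 and 6.55 after S961, of which 3 of 8 did. Its log2 difference between labelled genotypes was -0.22 ± 0.12 (95% interval -0.47 to 0.03, adjusted p = 0.447 in limma) after saline and -0.17 ± 0.11 (-0.39 to 0.05, adjusted p = 0.336) after S961. Irs2 differed by 0.24 ± 0.13 (-0.03 to 0.51, adjusted p = 0.436) after saline, where it stood at 4.44, 4.82 and 5.05 log2 CPM in βKlf6KO libraries and 4 of 6 lay above every control. After S961 the Irs2 difference was 0.06 (-0.17 to 0.30) and turned to -0.21 with a correction for GC content, to -0.04 without the 3 libraries named above and to -0.003 without control S961 replicate 8 alone. Irs1 and Irs2, which encode related docking proteins, thus had estimates of opposite sign after saline, neither past the threshold.

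Akt1 and Akt2 encode the kinases that phosphorylate FoxO proteins. Their estimates between labelled genotypes were 0.10 ± 0.47 (95% interval -0.87 to 1.08) and 0.13 ± 0.28 (-0.44 to 0.71) after saline, and 0.25 ± 0.41 (-0.60 to 1.09) and 0.21 ± 0.24 (-0.29 to 0.71) after S961. These signs turned when the 3 libraries that scored highest on the first component were left out, to -0.27 and -0.09 after saline and -0.33 and -0.13 after S961. Leaving out control saline replicate 4 alone turned both after saline (-0.27 and -0.09), and leaving out control S961 replicate 2 alone turned Akt1 after S961 (-0.07). With the first component as a covariate Akt1 was lower under the βKlf6KO label. Its log2 difference was then -0.321 after saline (adjusted p = 0.00517 in limma) and -0.305 after S961 (adjusted p = 0.00256). That setting called 2821 of all 13591 genes after saline and 3829 after S961. The component was computed from all genes, Akt1 included, and Akt1 had an r of -0.989 with its score (group means removed). The Akt1 call thus holds only given that adjustment.

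The 9 members had the same sign after saline and after S961 in 9 of 9 cases (100%), in mice that the 2 comparisons do not share, and so did 81.7% of all 13591 genes, with the signs of Irs2, Akt1 and Akt2 turning under the settings given above. Of the members, 66.7% were lower in both treatments, as were 39.7% of all genes. The median member difference between labelled genotypes was -0.26 after saline and -0.17 after S961, beside 0.00 and 0.02 over all genes. Unadjusted p was under 0.05 for 3 of 9 members after saline (14.4% of all genes) and 4 of 9 after S961 (22.9%).

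**Figure D3:**
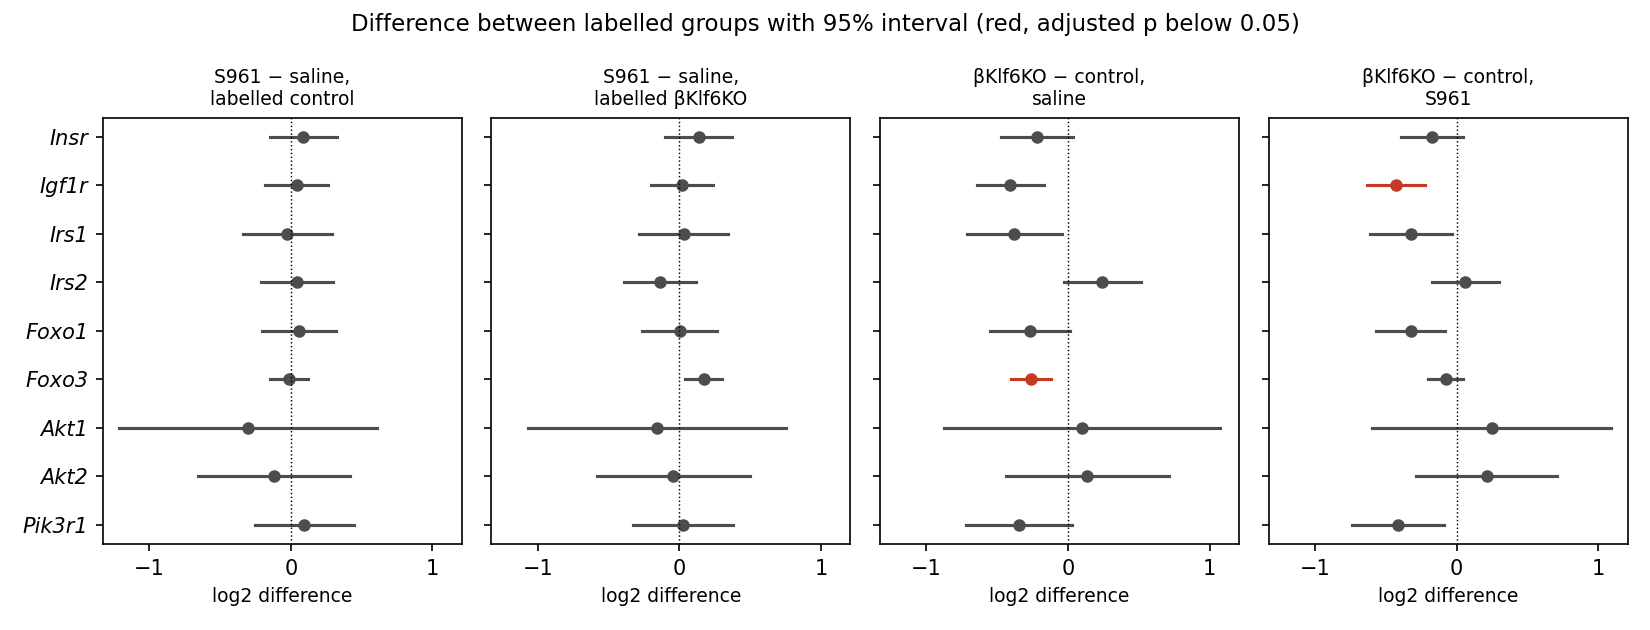
Log2 difference (x axis) of each gene in the 4 comparisons, with the 95% interval from limma; red marks an adjusted p below 0.05. The S961 panels centre near 0, and in the genotype panels Foxo3 (-0.26, saline) and Igf1r (-0.43, S961) are red, while the Akt1 intervals are the widest.

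The first component held 54.9% of the variance over all libraries, differences between groups included, and members took opposite ends of it. With group means removed, Pearson's r with the component score over 28 libraries was -0.989 for Akt1 and -0.985 for Akt2. It was 0.905 for Pik3r1, 0.893 for Insr, 0.867 for Foxo1 and 0.754 for Irs1, but -0.406 for Irs2, 0.295 for Igf1r and 0.0312 for Foxo3. Akt1 has the highest GC content of the 9 in its longest annotated transcript (59.7%) and Pik3r1 the lowest (44.9%). Pearson's r of the members with the mean of the β-cell markers, group means removed, ran from 0.914 for Akt1 to -0.777 for Insr. The component was computed from all genes, members included, and the libraries share preparation and depth, so these are descriptions.

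The 3 libraries of highest score show what this means for single genes. Akt1 stood at 3.49 to 4.56 log2 CPM in them and at 4.93 to 7.18 in the other 25, with no overlap. Akt2 stood at 4.49 to 5.37 against 5.54 to 6.6. Insr stood at 6.65 to 6.79 against 5.85 to 6.55, and Pik3r1 at 6.95 to 7.5 against 5.89 to 6.73, so the receptor and p85α genes were highest in the libraries where both Akt genes were lowest. All 3 libraries were labelled control, and their Foxo3, at 5.98 to 6.01, was in mid-range.

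**Figure D4:**
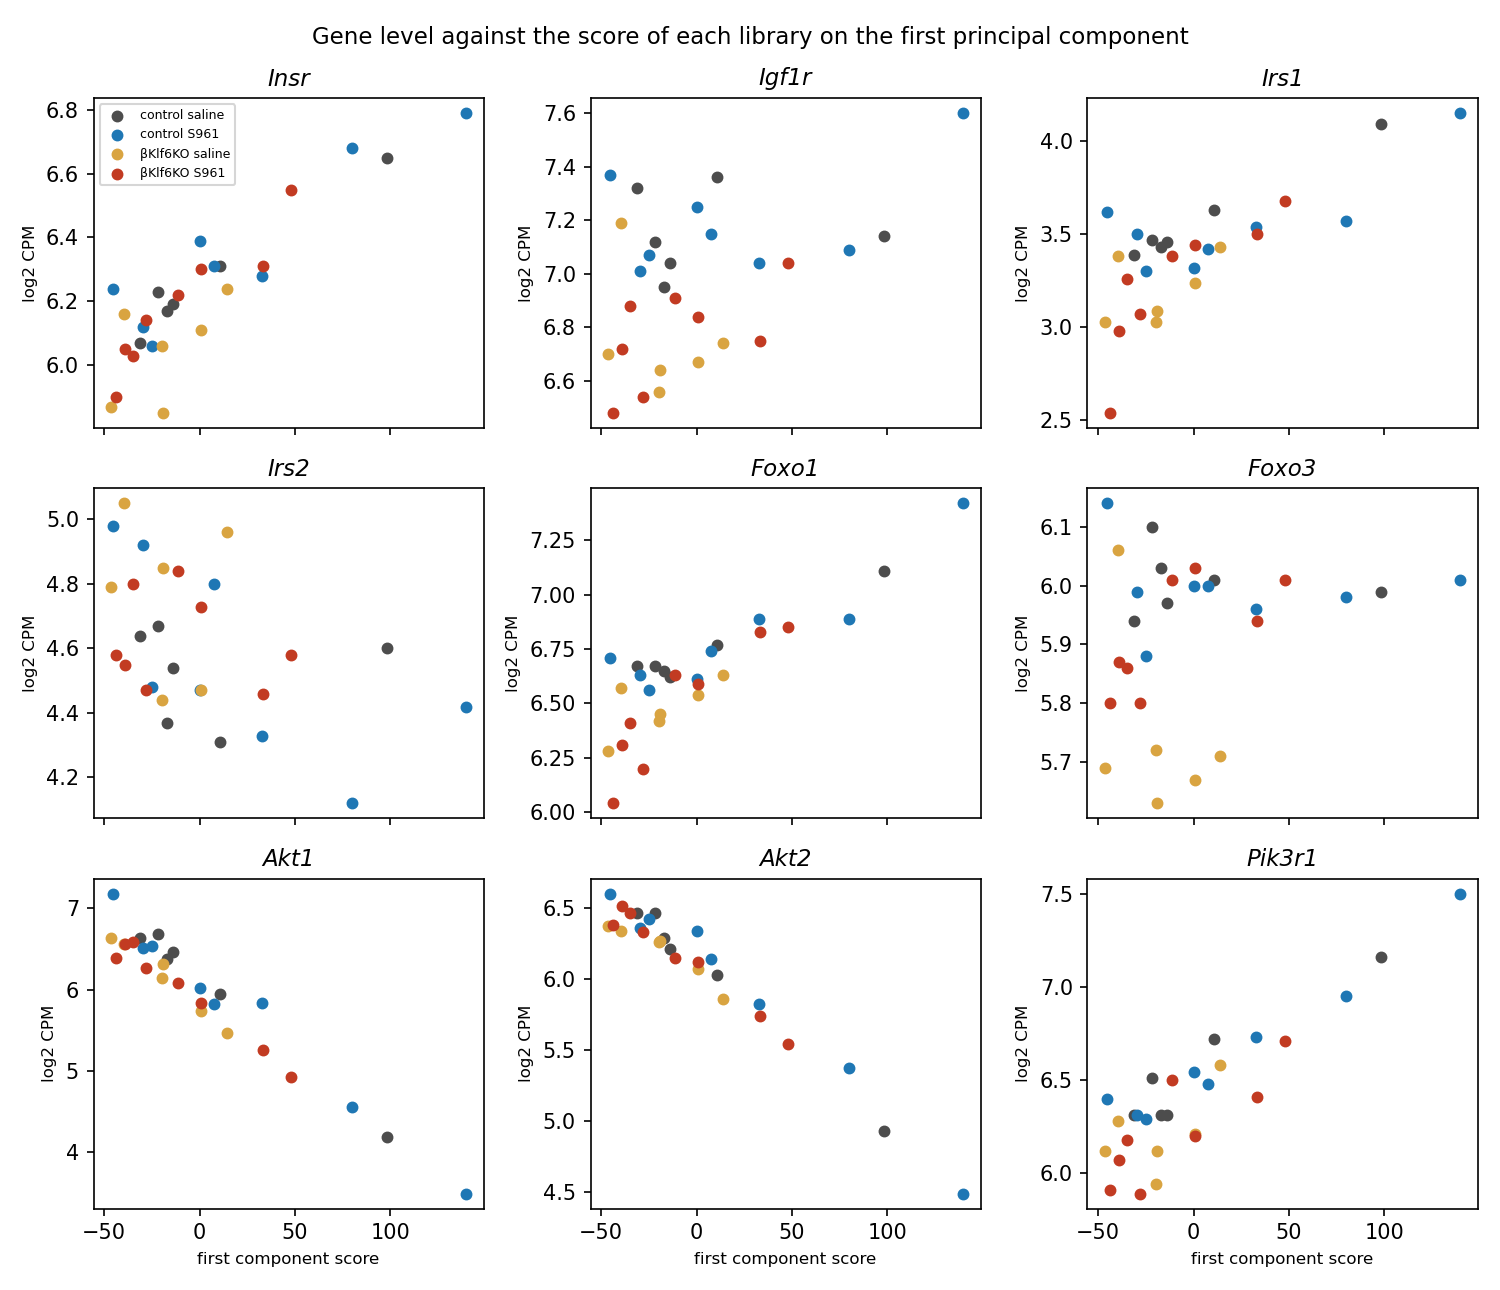
Level of each gene (log2 CPM, y axis) against the library score on the first principal component (x axis, no unit), coloured by labelled group. Akt1 and Akt2 fall and Insr, Foxo1 and Pik3r1 rise along the axis, whereas Foxo3 has no slope (r = 0.0312 with group means removed).

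Among the 36 pairs of members, Akt1 and Akt2 moved most closely together (r = 0.98, group means removed, 28 libraries). Irs1 and Foxo1 followed (0.936), then Foxo1 with Pik3r1 (0.905) and Insr with Pik3r1 (0.88). Akt2 and Pik3r1 ran opposite to each other (-0.903), as did Insr and Akt1 (-0.883). The paralogs Irs1 and Irs2 had an r of 0.091, and the receptors Insr and Igf1r one of 0.483. Igf1r and Foxo3, the genes called between labelled genotypes, had an r of 0.653. These pairs share libraries, depth and the component above.

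**Figure D5:**
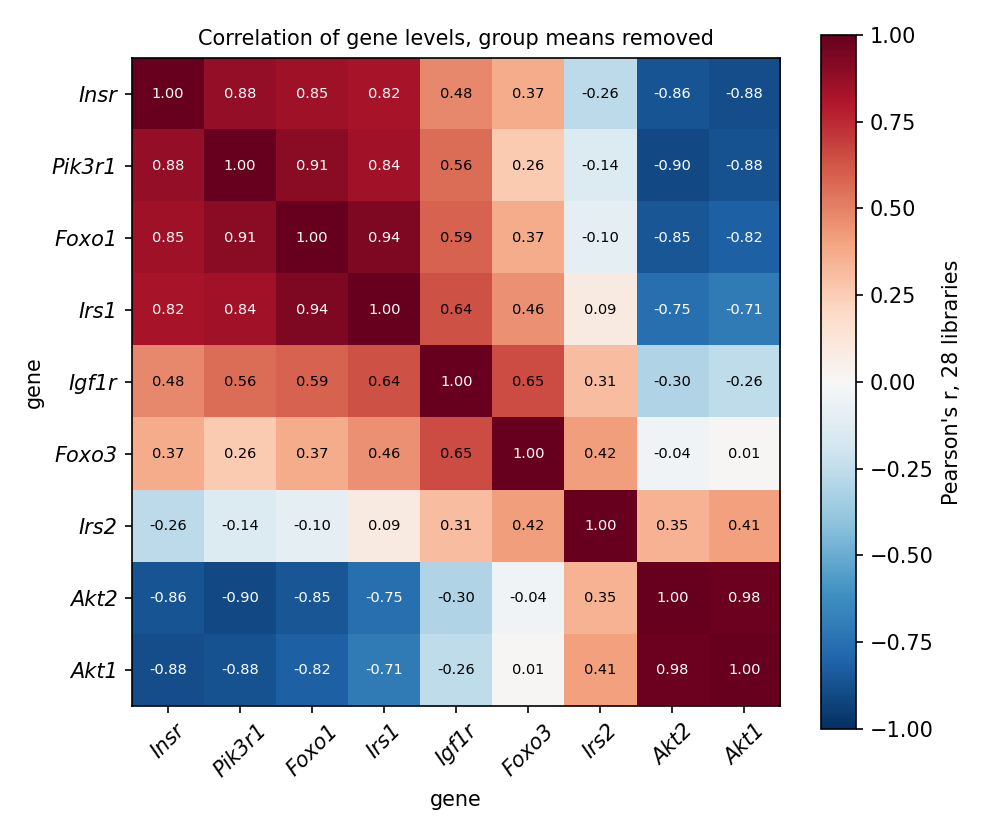
Pearson's r between members over 28 libraries with group means removed (colour and number). Insr, Pik3r1, Foxo1 and Irs1 form a block of r from 0.82 to 0.94, opposite to the pair Akt1 and Akt2 (0.98), with Igf1r, Foxo3 and Irs2 outside both.

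The genes most like each member in these residuals were named by the highest r over 28 libraries. They were Apc, Phf3 and Mib1 for Insr (0.965 to 0.966), Sec23ip, Hipk3 and Ufl1 for Pik3r1 (0.945 to 0.949), and March6, Syt14 and Intu for Foxo1 (0.965 to 0.971). For Irs1 they were Trim56 (0.965), Med12l (0.942) and Foxo1 (0.936). Rbck1, Abcb8 and Ptpa ran with Akt1 (0.994 to 0.995) and Tex264, Nacc1 and Grina with Akt2 (0.989 to 0.99). The nearest genes were less close for Igf1r (Golga3 0.873, Nav1 0.852, Helz 0.844), for Irs2 (Cbfa2t3 0.82, Ypel4 0.814, Nova2 0.811) and for Foxo3 (ENSMUSG00000091562 0.775, Ago2 0.763).

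Beyond the 9 members, 8 lists of other insulin pathway genes held 121 genes, of which 112 were in the table and tested. After S961, 3 of the 112 were called between labelled genotypes, 2 higher and 1 lower, beside 4.36% of all genes. In the other 4 comparisons 0 of 112 were called by limma, where 2.78% of all genes were called for genotype after saline and 0% otherwise. For S961 in control and βKlf6KO islets 0 and 8 had an unadjusted p under 0.05 in limma, beside 0.765% and 3.04% of all genes. For genotype after saline 16 did, beside 14.4%, and for the difference of responses 1 did, beside 2.58%. The median over the lists lay between -0.08 and 0.05 in the 5 comparisons.

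Among the ligands, 1 of 4 genes was called after S961, beside 4.36% of all genes. This was Igf1, which encodes the ligand of the Igf1r receptor and was higher under the βKlf6KO label. It stood at 1.09, 1.46 and 2.95 log2 CPM (lowest, median and highest of 8) in control and 1.96, 2.61 and 3.24 in βKlf6KO libraries after S961. All 8 βKlf6KO libraries lay above the control mean, while control replicate 8 lay among them. Igf1 rose by 0.90 ± 0.25 (log2 difference ± SE, adjusted p = 0.0399 in limma), from 70 to 220 reads in control to 121 to 277 in βKlf6KO libraries. The call was lost without any 1 of control S961 replicates 2, 3, 4, 5 and 6 or βKlf6KO S961 replicates 5, 6, 7 and 8, with an adjusted p of up to 0.0913, and after median centring (0.057), quantile normalization (0.131) and with only the groups compared (0.118). Igf1 is also made by fibroblasts and macrophages, whose sums are given above, and their part was not tested.

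Among FoxO factors and targets, 1 of 24 was called after S961, beside 4.36% of all genes tested. This was Cdkn1a, which encodes the cell cycle inhibitor p21 and also responds to p53. It stood at 5.67, 6.72 and 7.30 log2 CPM in control and 7.01, 7.26 and 8.01 in βKlf6KO libraries, all 8 of them above the control mean, and rose by 0.76 ± 0.17 (SE, adjusted p = 0.0171 in limma). Of the 26 genes listed as kinases below PI3 kinase and their substrates, 1 was called, again beside 4.36% of all genes. This was Tbc1d1, which encodes an Akt substrate in glucose transporter traffic. Tbc1d1 stood at 6.52, 6.75 and 6.95 log2 CPM in control and 5.93, 6.44 and 6.69 in βKlf6KO libraries, with 6 of 8 below every control, and fell by 0.36 ± 0.09 (SE, adjusted p = 0.0227). With only the groups compared the adjusted p was 0.103 for Cdkn1a and 0.118 for Tbc1d1, and that of Tbc1d1 was 0.121 after quantile normalization and 0.051 to 0.0578 without control S961 replicate 5 or βKlf6KO S961 replicate 6 or 7. After saline Tbc1d1 differed by -0.33 ± 0.10 (adjusted p = 0.0720) and Cdkn1a by 0.24 ± 0.20 (adjusted p = 0.664).

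None of the genes listed as receptor adaptors (12 tested), PI3 kinase subunits (8), phosphatases and inhibitors (18), IGF binding proteins and other receptors (7) or the Ras and ERK branch (14) was called in any comparison. Unadjusted p for genotype after S961 was under 0.05 for 4, 1, 5, 1 and 0 genes of these lists in limma, beside 22.9% of all genes.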

How the data were processed

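Islet RNA from 28 mice was sequenced from TruSeq stranded mRNA libraries, 125 bases single end, per the labels' protocols. The submitters' processing notes name STAR 2.5.3a, HTSeq 0.9.1 and edgeR on GRCm38, with no version for edgeR. The authors deposited 1 table of log2 CPM, read counts scaled to a common library size with an offset below 1 read. Whole reads were recovered from it for 100% of values within 0.05 read. Libraries held 28868638 to 45001633 reads over listed genes, so 3 reads, the most that a count of 0 allows, are 0.0685 to 0.105 CPM, which covers counting error only. The strand setting of the counting was not given in the sources used here; reads of genes that overlap, antisense ones included, cannot be told apart.

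Samples were grouped by their labels into 4 groups, with columns matched by name. A gene was kept where 6 or more libraries had 1 CPM or more, which left 13591 of 14219. limma 3.58.1 in R 4.3.3 was fitted to the deposited log2 CPM with group means and an intensity trend, all 28 libraries sharing the spread. Tests were two-sided, p-values were Benjamini-Hochberg adjusted over all genes kept, and genes were called at an adjusted p under 0.05. Fold changes are on the log2 CPM scale. The 5 comparisons were S961 against saline in each labelled genotype, labelled βKlf6KO against control after saline and after S961, and the interaction of both. The fit was tested on simulated data with independent noise for each gene, which lack the first component that the real libraries share. No 2 libraries of a group agreed within sampling noise. Each of the 4 sequencing lanes held all groups.

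Level per length used exon lengths of GENCODE M21, in which 14210 gene IDs were found. GC content was that of the longest transcript of each gene there. Promoters came from RefSeq (GRCm38.p6). Named genes were the 9 members, the called genes of the pathway lists (at most the 3 of smallest p in each), the 3 genes most correlated with each member, and Klf6. Ins1 and Ins2 were named as a check of the labels. One gene that this rule names is not reported here. Alternatives, 15 beside leaving out each library, covered the pseudocount, filter, moderation, weights, groups in the fit, lane, replicate block, scaling, GC content and first component. The members and lists were chosen with earlier results of these data known.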

Additional observations from a re-analysis of the deposited data

Results flagged for a closer look

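Single libraries stood far from the rest of their group in 9 of 52 groups examined for 13 genes. The threshold is set at about 1 in 20 for a single group. These groups share libraries and hold correlated genes, so their count cannot be judged against that rate. βKlf6KO saline replicate 2 was high for Igf1r (7.19 log2 CPM, next 6.74) and for Foxo3 (6.06, next 5.72). It had the lowest fibroblast, macrophage and lymphocyte marker sums of its group, and their part was not tested. Control saline replicate 4 was high for Irs1 (4.09, next 3.63) and Foxo1 (7.11, next 6.77) and low for Akt1 (4.18, next 5.95) and Akt2 (4.93, next 6.03). Control S961 replicate 2 was high for Irs1 (4.15, next 3.62) and Foxo1 (7.42, next 6.89). Both of these control libraries are among the 3 of highest first component score. Control S961 replicate 8, the other of them, was high for Igf1 (2.95, next 1.94).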

How the results depend on the processing

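The 2 S961 comparisons and the difference of responses kept 0 called members under every alternative run, in limma throughout. For labelled genotype after saline, where 1 member was called, log2(CPM + 1), no filter, lane as a covariate and leaving out the 3 libraries of highest component score each called 2. Library weights called 5 and the first component as a covariate 3. A filter at 5 CPM, a fit of only the groups compared, quantile normalization and median centring called 0. Leaving out 1 library gave 0 to 2. After S961, where 1 was called, a fit of only the groups compared and quantile normalization called 0, the GC correction 3 and the first component 4, and leaving out 1 library gave 0 to 1. The replicate block called 0 members after saline and 1 after S961, and replicate numbers did not pair mice (median r of -0.0702 over 38 same-numbered pairs and 0.0332 over 254 others). Foxo3 after saline was called in 9 of 15 alternatives and Igf1r after S961 in 13 of 15. The GC correction after saline called Igf1r in place of Foxo3, whose adjusted p was then 0.171. Akt1 turned from higher to lower with the first component, at -0.321 after saline and -0.305 after S961. The cause of these changes was not tested, and some of these settings also test fewer genes or samples. Over all genes, 378 calls after saline became 117 with the 5 CPM filter, 3018 with library weights, 2821 with the first component and 1370 with the GC correction, and ran from 214 to 532 without 1 library. The 593 calls after S961 became 35 with only the groups compared, 3829 with the first component and 2549 with the GC correction, and ran from 177 to 817 without 1 library. The member with the fewest reads was Irs1, at 168 to 570, and the pathway gene Igf1 had 70 to 277.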

Other observations

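Cdkn1a, whose product is the cell cycle inhibitor p21, was also higher after S961 than after saline in libraries labelled βKlf6KO, by 0.41 ± 0.18 on the log2 scale (SE; unadjusted p = 0.0356, adjusted p = 1.0 in limma, so not called), with 7 of 8 S961 libraries above the highest saline library. The log2 ratio of Ins1 to Ins2 reads, taken as a further check of the labels, was -1.29 ± 0.27 (mean ± SD over 6 libraries) under the βKlf6KO label after saline and -1.63 ± 0.77 under the control label (6 libraries). After S961 these means were -1.94 ± 0.48 and -1.31 ± 0.69 (8 libraries each). Under the βKlf6KO label, where Cre sits in 1 Ins1 allele, the mean ratio was thus higher than in control after saline and lower after S961. It did not follow the genotype label in the same direction in both treatments.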
